A study of Mus musculus with 12 samples.

Results

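GIMAP genes encode GTPases of immunity-associated proteins, small GTP-binding proteins that lymphocytes carry on their internal membranes. The genes sit side by side in 1 cluster. In mice, losing some of them leaves animals short of T cells or B cells, which places the family in lymphocyte survival, and transcripts of several members have also been found in endothelial cells. The 8 genes described here, Gimap1, Gimap3, Gimap4, Gimap5, Gimap6, Gimap7, Gimap8 and Gimap9, were taken by symbol from a table of 35999 symbols, and all 8 were among the 17940 genes that passed a filter on low counts. They were chosen with their fold changes between the groups already known, so those differences are given as a description, without a test.

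The tumours came from male BALB/c mice of 8 to 10 weeks bearing subcutaneous tumours of AB1-HA, a mouse mesothelioma line made to express influenza haemagglutinin. The anti-CD4 group (6 tumours) received 100 µg of an antibody that depletes CD4 T cells on days -3, 0 and 7, and the PBS group (6 tumours) received the saline vehicle on the same days. All 12 tumours were excised on day 9 and their bulk RNA was sequenced. Nothing in the labels ties a replicate number of one group to that of the other.

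Levels are CPM, estimated counts scaled to a common library total, and a fold change is the log2 difference of the anti-CD4 group over the PBS group. A gene was called at an adjusted p under 0.05 in edgeR's quasi-likelihood test over all 17940 genes. Library totals were 46.4 ± 10.0 M estimated counts in the anti-CD4 tumours and 36.1 ± 4.03 M in the PBS tumours (SD, n = 6 each). Msln, the mesothelin gene of mesothelial cells, was at 92.6 to 155 CPM in the anti-CD4 tumours and 94.7 to 140.0 CPM in the PBS tumours. Pdpn, the podoplanin gene, also made by mesothelial cells, was at 34.2 ± 1.81 CPM in the anti-CD4 tumours and 27.2 ± 2.16 CPM in the PBS tumours (SD, n = 6 each), called higher at 0.33 on the log2 scale (edgeR adjusted p = 0.0186) and without overlap. Wt1, a transcription factor of mesothelium, was at 1.5 ± 0.372 CPM in the anti-CD4 tumours and 1.72 ± 0.350 CPM in the PBS tumours (edgeR adjusted p = 0.521). Ptprc, the gene of CD45 on leukocytes, was at 79.7 ± 28.3 CPM in the anti-CD4 tumours and 117 ± 34.2 CPM in the PBS tumours (edgeR adjusted p = 0.161). Cd4, the transcript of the depleted cells' coreceptor, was at 1.31 ± 0.498 CPM in the anti-CD4 tumours and 6.31 ± 2.34 CPM in the PBS tumours (SD, n = 6 each). On the log2 scale Cd4 changed by -2.26 (SE 0.28, adjusted p = 0.00298 in edgeR).

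The cluster runs over chr6:48647234-48770851 of GRCm38 in the order Gimap8, Gimap9, Gimap4, Gimap6, Gimap7, Gimap1, Gimap5 and Gimap3, with Gimap6 and Gimap3 on the minus strand and the others on the plus strand. Gimap3 (chr6:48764464-48770851) and Gimap5 (chr6:48746197-48754210) are its closest pair in sequence: 809 of 895 aligned coding bases were the same, or 90.4%, while the next pair, Gimap7 and Gimap8, reached 73.9%. The stretch they share is shown because reads that fall in it cannot be assigned to either gene. Capitals mark the identical run of 140 bases, and each sequence carries 10 flanking bases per side. The Gimap3 sequence is on the minus strand at chr6:48765671-48765830 and the Gimap5 sequence on the plus strand at chr6:48752674-48752833, each within 1 coding exon.
Gimap3: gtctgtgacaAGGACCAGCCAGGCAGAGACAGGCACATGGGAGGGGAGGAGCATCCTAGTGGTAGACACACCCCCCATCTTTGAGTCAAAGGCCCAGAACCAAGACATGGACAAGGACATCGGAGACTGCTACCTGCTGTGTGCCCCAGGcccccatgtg
Gimap5: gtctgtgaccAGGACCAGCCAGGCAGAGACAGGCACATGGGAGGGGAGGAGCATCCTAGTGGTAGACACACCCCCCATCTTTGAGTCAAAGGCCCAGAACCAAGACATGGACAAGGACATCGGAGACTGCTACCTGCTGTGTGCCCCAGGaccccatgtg

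Of the 31-base words of Gimap3 transcripts, 335 also occurred in Gimap5, which is 13.2% of the words of Gimap3 and 8.02% of those of Gimap5. For Gimap1, 33.9% of the words also occurred in the antisense gene Gimap1os, which overlaps it by 2391 bases. Gimap1os is not among the symbols with deposited counts. Gm28053, an annotated gene at chr6:48718607-48752644 on the plus strand, spans Gimap7 and Gimap1 and overlaps Gimap5. It had 11.1 counts summed over the anti-CD4 tumours and 25.2 over the PBS tumours, too few to be tested. Of the words of Gimap1, Gimap5 and Gimap3, 5.42%, 2.97% and 1.06% also occurred in Gm28053. Gimap4 and Gimap9 shared no word with another gene. Gimap6 and Gimap8 shared 1.42% and 1.30% of their words with other genes, and Gimap7 shared 2.2%, all with Gm28053. Counts were fractional in 10 to 12 of the 12 tumours for Gimap1, Gimap3, Gimap5, Gimap6 and Gimap8, and in 0 for Gimap4, Gimap7 and Gimap9. How the division of ambiguous reads bears on these values was not tested.

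The 250 bases upstream of the RefSeq start (GRCm38.p6) were read for the same genes. Those of Gimap3, Gimap7, Gimap5 and Gimap6 are shown because Gimap3 and Gimap7 had the largest fold changes, Gimap5 is the near copy of Gimap3, and Gimap6 was the most abundant member per length. Capitals mark 3 motifs of factors that act in T cells, searched on both strands: TGNGGT for RUNX, GGAAG for ETS and TGTTTAC for FOXO. No base lay in more than 1 motif.
Gimap3, chr6:48770852-48771101, minus strand: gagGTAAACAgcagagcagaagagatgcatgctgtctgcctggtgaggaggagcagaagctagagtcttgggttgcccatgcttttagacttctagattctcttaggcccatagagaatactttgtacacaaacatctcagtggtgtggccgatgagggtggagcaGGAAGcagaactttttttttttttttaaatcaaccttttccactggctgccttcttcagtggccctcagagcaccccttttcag
Gimap7, chr6:48718371-48718620, plus strand: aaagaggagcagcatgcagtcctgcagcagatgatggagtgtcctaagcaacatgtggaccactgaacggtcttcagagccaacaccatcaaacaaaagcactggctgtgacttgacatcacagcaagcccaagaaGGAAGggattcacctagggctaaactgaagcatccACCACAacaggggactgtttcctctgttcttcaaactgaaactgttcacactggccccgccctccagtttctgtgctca
Gimap5, chr6:48745947-48746196, plus strand: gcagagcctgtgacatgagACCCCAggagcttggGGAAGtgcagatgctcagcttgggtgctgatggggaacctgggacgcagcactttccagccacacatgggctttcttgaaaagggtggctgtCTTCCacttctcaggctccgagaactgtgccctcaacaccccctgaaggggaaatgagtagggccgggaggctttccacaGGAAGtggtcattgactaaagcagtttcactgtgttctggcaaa
Gimap6, chr6:48708245-48708494, minus strand: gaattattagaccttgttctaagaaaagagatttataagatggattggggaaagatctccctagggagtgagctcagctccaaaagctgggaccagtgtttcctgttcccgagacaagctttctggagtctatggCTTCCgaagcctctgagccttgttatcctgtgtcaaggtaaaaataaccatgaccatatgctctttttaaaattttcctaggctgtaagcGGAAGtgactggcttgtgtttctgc

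RefSeq gives 9 such windows for the 8 genes, since Gimap8 has 2 starts. The ETS letters were in 8 of the 9 windows and in 64.1% of all 32851 mouse windows of this length. The RUNX letters were in 6 of 9, against 40.1% of all windows. The FOXO letters occurred in 1 of the 9, that of Gimap3, against 3.17% of all windows. The TCF/LEF letters CTTTGAT were in 0 of 9 (3.21% of all windows), and TATAAA was in 1 of 9, that of Gimap6 (12.4% of all). These matches describe the letters and show no binding.

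Every GIMAP gene had a lower mean level in the anti-CD4 tumours than in the PBS tumours, but the sizes ranged widely, with levels between 29.9% of the PBS mean for Gimap3 and 81.5% for Gimap9. Summed over the 8 genes, the level was 23.5 ± 5.04 CPM in the anti-CD4 tumours and 38.8 ± 9.49 CPM in the PBS tumours (SD, n = 6 each). Of the 8 genes, 4 were called lower (Gimap1, Gimap3, Gimap5 and Gimap6) and 0 higher. Of all genes tested, 2.33% were called lower, 2.95% higher and 5.28% in either direction. A log2 fold change below 0 was found for all 8 members and for 50.1% of all tested genes. The median log2 fold change of the 8 was -0.72, beside -0.00033 over all tested genes. Since the members were chosen on this contrast, nothing is read from that count. In bulk tumours, fewer cells of a type and less RNA per cell cannot be told apart.

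**Figure D1:**
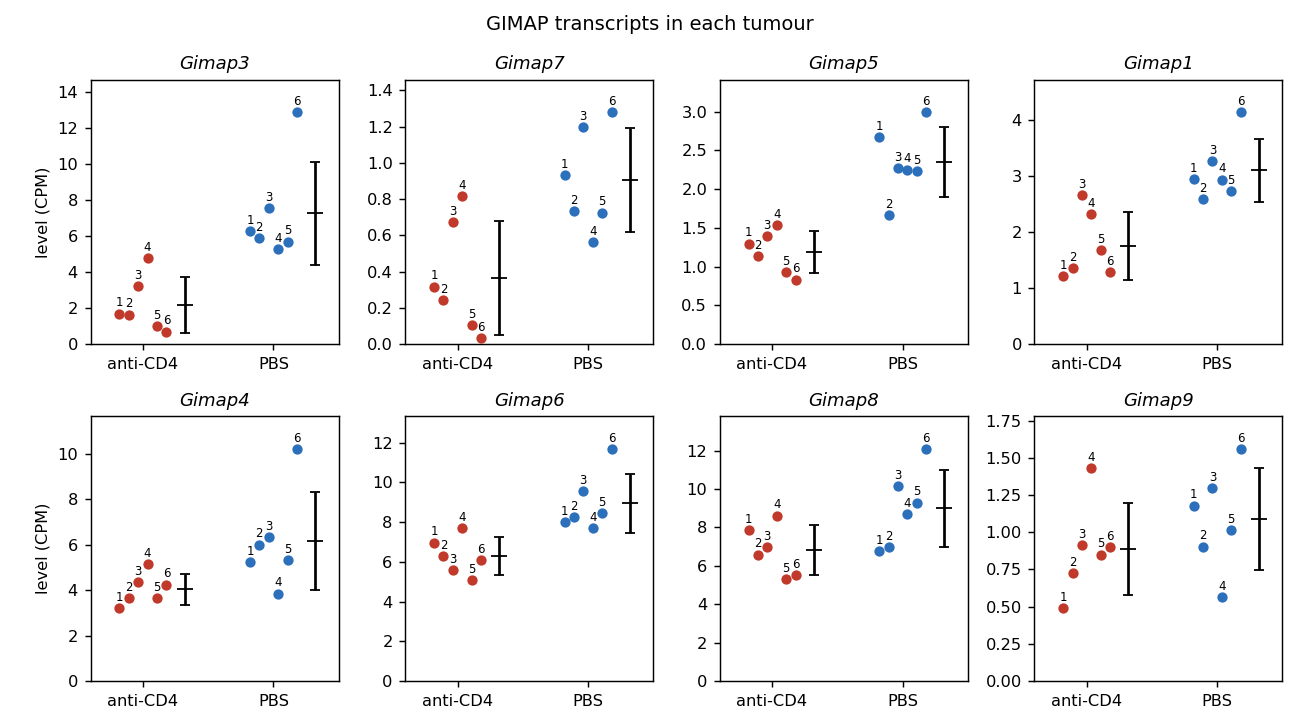
Level of each GIMAP gene (y axis, CPM, starting at 0) in the 6 anti-CD4 tumours (red) and the 6 PBS tumours (blue), each point a tumour with its replicate number, and bars giving mean ± SD. Gimap3 and Gimap5 show no overlap between the groups, and PBS tumour 6 is the highest tumour for all 8 genes.

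Gimap3, which in mice resides on mitochondria and influences how mitochondrial genomes segregate in blood cells, showed the largest difference. It was at 0.697 CPM in the lowest, 1.67 CPM at the median and 4.78 CPM in the highest of the anti-CD4 tumours, against 5.28, 6.08 and 12.9 CPM at the same points of the PBS tumours. The groups did not overlap, but anti-CD4 tumour 4 lay just under PBS tumour 4, and PBS tumour 6 stood well above its group. The means were 2.17 ± 1.55 CPM in the anti-CD4 tumours and 7.26 ± 2.85 CPM in the PBS tumours (SD, n = 6 each). The log2 fold change was -1.74 (SE 0.43).

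Gimap5, a protein of lysosome membranes whose loss makes mouse T cells short-lived, had 0.833 CPM in the lowest, 1.22 CPM at the median and 1.53 CPM in the highest anti-CD4 tumour, against 1.67, 2.26 and 2.99 CPM in the PBS tumours. These groups did not overlap either, with anti-CD4 tumour 4 and PBS tumour 2 closest to each other. The log2 fold change was -0.99 (SE 0.19). Gimap3 and Gimap5 were the 2 members without overlap; among all tested genes, 1.19% had every anti-CD4 tumour below every PBS tumour.

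Gimap1 (chr6:48739054-48743795), which mature mouse T and B cells need to persist, had 1.21 CPM in the lowest, 1.52 CPM at the median and 2.66 CPM in the highest anti-CD4 tumour, against 2.60, 2.94 and 4.14 CPM in the PBS tumours. Only anti-CD4 tumour 3 reached the PBS range. The log2 fold change was -0.82 (SE 0.21).

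Gimap7 (chr6:48718621-48724636), whose human counterpart is a GTPase that acts as a dimer, had the second largest fold change but the lowest level. It was at 0.0340 CPM in the lowest, 0.280 CPM at the median and 0.816 CPM in the highest anti-CD4 tumour, against 0.563, 0.833 and 1.28 CPM in the PBS tumours. Anti-CD4 tumours 3 and 4 lay within the PBS range and the other 4 below it. These levels rest on 2 to 50 counts per tumour, and the log2 fold change of -1.33 (SE 0.52) was not called.

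Gimap6 (chr6:48701582-48708225) binds the autophagy protein GABARAPL2. It had 5.08 CPM in the lowest, 6.18 CPM at the median and 7.70 CPM in the highest anti-CD4 tumour, against 7.69, 8.36 and 11.7 CPM in the PBS tumours. Anti-CD4 tumour 4 touched the PBS range and the other 5 lay below it. The log2 fold change of -0.51 (SE 0.13) was called.

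Gimap4 (chr6:48684549-48692060), which affects the timing of T cell death in mice, had 3.23 CPM in the lowest, 3.95 CPM at the median and 5.15 CPM in the highest anti-CD4 tumour, against 3.85, 5.66 and 10.2 CPM in the PBS tumours. The groups overlapped, since PBS tumour 4 was lower than several anti-CD4 tumours. The log2 fold change of -0.61 (SE 0.20) was not called.

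Gimap8 (chr6:48647234-48660875) is the longest member, with a coding sequence of 2064 bases, while the others have 873 to 984. It had 5.29 CPM in the lowest, 6.79 CPM at the median and 8.62 CPM in the highest anti-CD4 tumour, against 6.75, 8.99 and 12.1 CPM in the PBS tumours. The ranges overlapped over a wide stretch, and the log2 fold change of -0.40 (SE 0.16) was not called.

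Gimap9 (chr6:48676129-48679114) had 0.490 CPM in the lowest, 0.875 CPM at the median and 1.43 CPM in the highest anti-CD4 tumour, against 0.563, 1.10 and 1.56 CPM in the PBS tumours. The groups lay almost wholly within each other's range. Its log2 fold change of -0.29 (SE 0.28) was about the size of its error.

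Among the anti-CD4 tumours, tumour 4 was the highest for every member except Gimap1, where tumour 3 was highest. The member calls depended on single tumours, although all 8 fold changes stayed below 0 in each of the 12 fits that left out 1 tumour. Without anti-CD4 tumour 2, 5 or 6, or without PBS tumour 6, 0 members were called; the shares of all genes called lower were then 0.182%, 0.171%, 0.199% and 0.36%. Without PBS tumour 2, 3 or 5, Gimap5 was the 1 member called, with 0.656%, 0.522% and 0.847% of all genes called lower. Without anti-CD4 tumour 3 there were 3 member calls (2.03% of all genes). There were 4 without anti-CD4 tumour 1 (6.37%), anti-CD4 tumour 4 (1.98%), PBS tumour 1 (8.18%) or PBS tumour 4 (1.61%). Fits with 0 or 1 member called also had few calls in the whole table. Leaving out both anti-CD4 tumours 3 and 4, which had the most Gimap3 of their group, gave 5 member calls (3.86% of all genes). Other tools called more: limma's voom with sample weights called 7 members lower (17.7% of all genes) and DESeq2 called 5 (6.58%). Library totals also differed between the groups (exact two-sided permutation test, p = 0.039), and with the library total as a covariate 0 members were called (0.0279% of all genes), with log2 fold changes between -1.66 for Gimap3 and -0.27 for Gimap8. In that edgeR fit 6 of the 8 members were lower at an unadjusted p under 0.05, as were 5.55% of all genes.

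The proportions of the genes within the family also differed. Gimap3 made up 8.53% ± 4.28 of the summed GIMAP level in the anti-CD4 tumours (3.56% to 14.8%) and 18.3% ± 2.32 in the PBS tumours (16.1% to 22.6%; SD, n = 6 each), without overlap. Gimap8 made up 29.1% ± 2.77 in the anti-CD4 tumours and 23.3% ± 3.05 in the PBS tumours, and Gimap6 made up 27.2% ± 3.72 in the anti-CD4 tumours and 23.4% ± 1.53 in the PBS tumours. Shares add up to a fixed whole, so a lower share of Gimap3 goes with higher shares elsewhere.

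Levels per kilobase of transcript put the members in order. The length was that of the transcript with the longest coding sequence of each gene. Each gene has more than 1 annotated transcript, and the order with other lengths was not computed. In the anti-CD4 tumours Gimap6 came first with 3.94 ± 0.592 CPM per kilobase, followed by Gimap8 with 2.64 ± 0.505, Gimap4 with 2.24 ± 0.379, Gimap1 with 1.17 ± 0.405 and Gimap3 with 1.10 ± 0.785 (SD, n = 6). Gimap9 with 0.640 ± 0.225, Gimap5 with 0.609 ± 0.139 and Gimap7 with 0.287 ± 0.247 CPM per kilobase were lowest. In the PBS tumours Gimap6 was again first with 5.61 ± 0.934 CPM per kilobase, but Gimap3 stood second with 3.69 ± 1.45, beside Gimap8 with 3.49 ± 0.780 and Gimap4 with 3.42 ± 1.20 (SD, n = 6). Those 3 did not differ from each other beyond their spread. Gimap1 with 2.08 ± 0.374 and Gimap5 with 1.20 ± 0.231 followed, and Gimap9 with 0.785 ± 0.248 and Gimap7 with 0.713 ± 0.224 CPM per kilobase were within each other's spread.

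The rule for the members asks how they stand beside T cell and endothelial transcripts. Of 20 T cell genes, 4 were called lower and 0 higher in the anti-CD4 tumours, and 19 had a negative log2 fold change, with a median of -1.0. The called ones were Cd5, a T cell surface receptor (-2.18, SE 0.27, edgeR adjusted p = 0.00298), Cd2, an adhesion receptor (-1.64, edgeR adjusted p = 0.0376), Zap70, which relays signals of the T cell receptor (-1.47, edgeR adjusted p = 0.0415), and Ubash3a, a phosphatase-like regulator of the same pathway (-0.61, edgeR adjusted p = 0.0365). Cd3e, a subunit of the T cell receptor complex, was at 3.37 ± 2.70 CPM in the anti-CD4 tumours and 8.18 ± 3.31 CPM in the PBS tumours (SD, n = 6 each). Its log2 fold change of -1.28 (SE 0.50) did not pass (edgeR adjusted p = 0.128). Summed, the 20 genes were at 31.8 to 87.3 CPM in the anti-CD4 tumours and 76.0 to 142 CPM in the PBS tumours. The number of T cell genes called was 1 without anti-CD4 tumour 2, 5 or 6 or PBS tumour 3, 5 or 6, 2 without PBS tumour 2, and 12 without anti-CD4 tumour 4. DESeq2 called 11 of the 20 and limma's voom 19.

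Blood endothelial transcripts were read in the same fit. Of 24 such genes, 0 were called in either direction by edgeR's quasi-likelihood test, with 2 at an unadjusted p under 0.05 (5027 of all 17940 genes were), while limma's voom called 3 and DESeq2 called 0. Their median log2 fold change was 0.01, and their summed level was 363 to 670 CPM in the anti-CD4 tumours and 422 to 538 CPM in the PBS tumours. Pecam1, an endothelial adhesion molecule, was at 52.5 ± 9.04 CPM in the anti-CD4 tumours and 56.9 ± 7.39 CPM in the PBS tumours (SD, n = 6 each; edgeR adjusted p = 0.502). Cdh5, the cadherin of endothelial junctions, was at 48.4 ± 12.4 CPM in the anti-CD4 tumours and 45.4 ± 7.74 CPM in the PBS tumours (SD, n = 6 each; edgeR adjusted p = 0.738). Esm1 had the lowest fold change of the list (-0.80, edgeR adjusted p = 0.107) and Tek the highest (0.51, edgeR adjusted p = 0.117).

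The mean log2 CPM of each list served as its score. The T cell score was -0.267 to 1.8 in the anti-CD4 tumours and 1.58 to 2.61 in the PBS tumours, a mean difference of -1.24 (exact two-sided permutation test, p = 0.00649, adjusted over 9 lists p = 0.0260). The groups overlapped through anti-CD4 tumour 4, whose score was above those of PBS tumours 4 and 5, and this was also the anti-CD4 tumour with the most Gimap3. The blood endothelial score was 3.28 to 4.12 in the anti-CD4 tumours and 3.50 to 3.84 in the PBS tumours, a difference of -0.018 (exact two-sided permutation test, p = 0.868, adjusted p = 0.868). The lists were chosen with earlier results of these data known, so the p-values of list scores are a description and no independent test.

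Within the anti-CD4 group, where the difference between groups plays no part, 3 members followed the T cell score from tumour to tumour. Gimap3 had Pearson's r = 0.984 and Spearman's rho = 1.0 over the 6 tumours (exact permutation p = 0.00139 for r, the smallest that 720 pairings can give, adjusted p = 0.0296 over 32 relations). Gimap7 had r = 0.970 and rho = 1.0 (exact permutation, adjusted p = 0.0296), and Gimap5 had r = 0.952 and rho = 1.0 (exact permutation, adjusted p = 0.0333). Without anti-CD4 tumours 4 and 6, which lay farthest from the median score, r was 0.939 for Gimap3, 0.949 for Gimap7 and 0.880 for Gimap5. Gimap8, with r = 0.835 and an adjusted p of 0.150 from the exact permutation, did not pass, nor did Gimap1, with r = 0.776 (exact permutation, adjusted p = 0.187). Gimap4, Gimap6 and Gimap9 had r between 0.451 and 0.524.

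**Figure D2:**
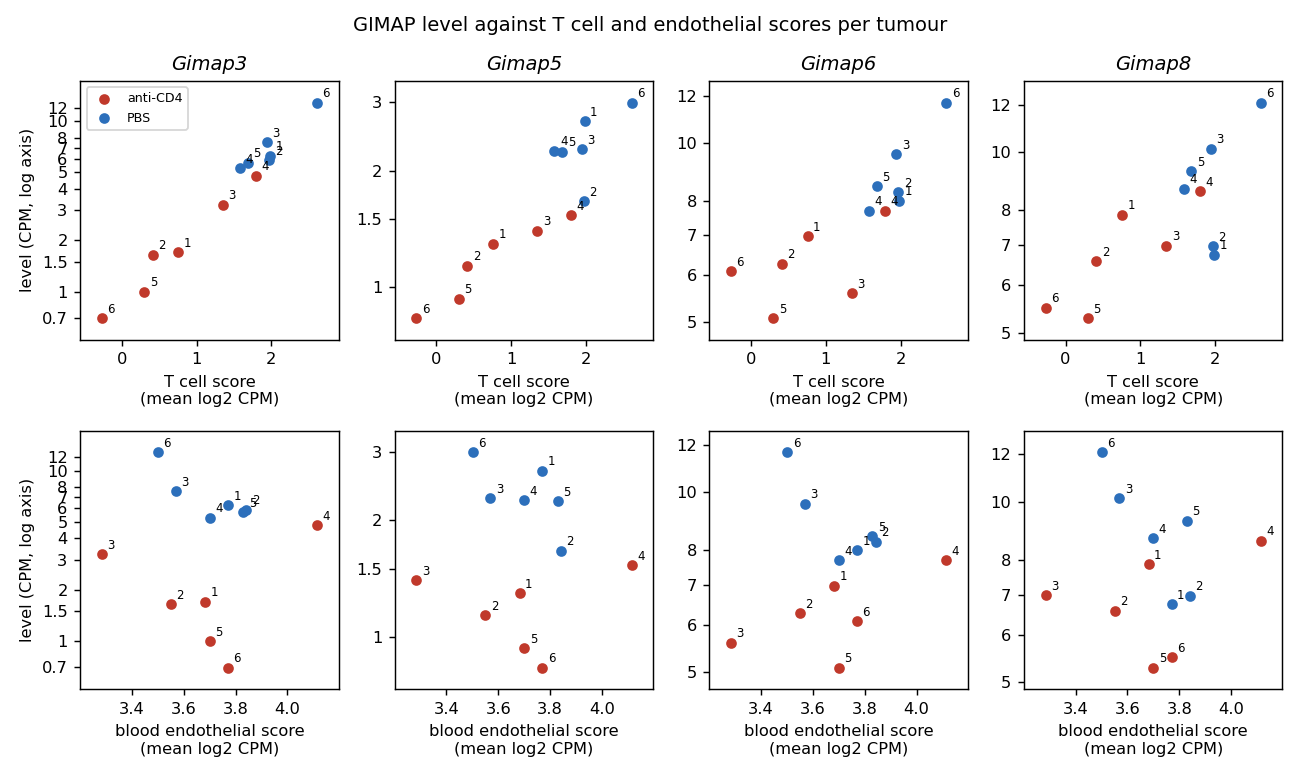
Level of 4 GIMAP genes (y axis, CPM on a log axis) against the T cell score (top) and the blood endothelial score (bottom), both as mean log2 CPM, in 6 anti-CD4 tumours (red) and 6 PBS tumours (blue), with replicate numbers. In the anti-CD4 tumours Gimap3 and Gimap5 climb with the T cell score (r = 0.984 and 0.952), while Gimap6 scatters more (r = 0.486).

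Within the PBS group all 8 genes had a positive r with the T cell score, between 0.465 for Gimap8 and 0.947 for Gimap4, and 0 of 8 passed the adjustment. Gimap3 came closest, with r = 0.941 (exact permutation, adjusted p = 0.0533). Without PBS tumours 4 and 6 the r values ran between -0.52 and 0.466 with a median of 0.254, so the higher values were seen only with those 2 tumours included. The scores left were close together, at 1.98, 1.97, 1.94 and 1.68, so r over them says little about the relation. The same check in the anti-CD4 group kept scores of 0.30 to 1.35. Whether r differed between the groups was not tested.

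With the blood endothelial score, r was between -0.083 and 0.630 in the anti-CD4 tumours, and none of the 8 passed. In the PBS tumours all 8 were negative, between -0.938 and -0.51, and Gimap1 passed with r = -0.938 and rho = -0.943 (exact permutation, adjusted p = 0.0296 for r and 0.133 for rho). Its r was -0.864 without PBS tumours 3 and 6, whereas Gimap3, Gimap4, Gimap6, Gimap7 and Gimap9 turned positive without them. In all, 4 of the 32 relations passed, and 0 did when the scores came from shorter lists.

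**Figure D3:**
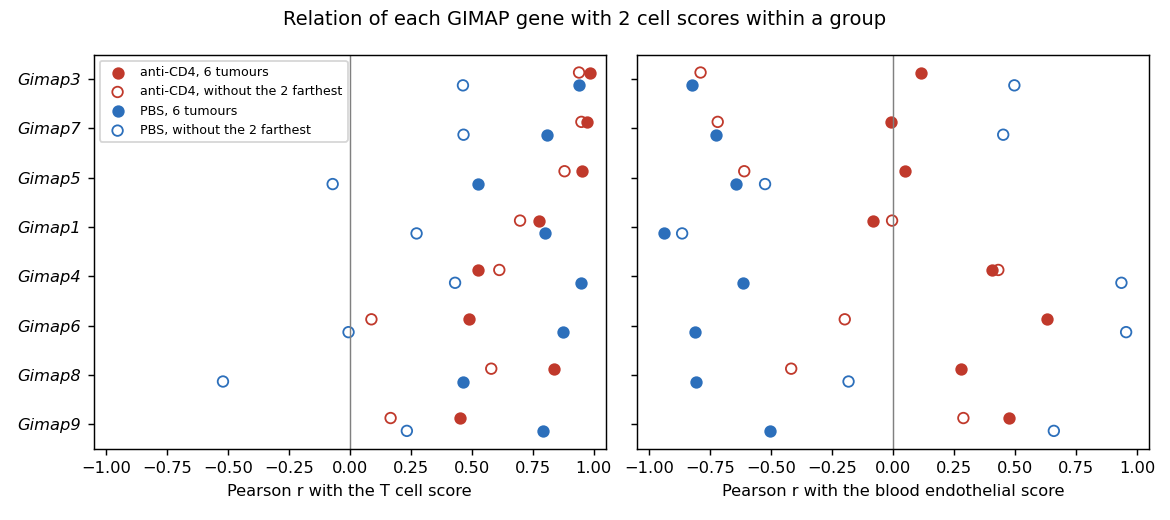
Pearson r of each GIMAP gene (rows) with the T cell score (left) and the blood endothelial score (right) over 6 anti-CD4 tumours (red) or 6 PBS tumours (blue); open circles leave out the 2 tumours farthest from the median score. With the T cell score the red filled points of Gimap3, Gimap7 and Gimap5 lie at 0.952 to 0.984 and stay at 0.880 or above when open, while blue open points reach -0.52.

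Adding a score to the fit gave the fold changes of the members at equal score. With the T cell score in the edgeR fit, 0 members were called, 0 had an unadjusted p under 0.05, and their median log2 fold change was -0.18, against -0.72 without it. Gimap3 was then at -0.33 (SE 0.19), Gimap5 at -0.47 (SE 0.24) and Gimap7 at 0.32 (SE 0.40). In that fit 0 of 17940 genes (0.0%) were called lower or higher and 1209 had an unadjusted p under 0.05; the T cell score differed between the groups, so its part and that of the treatment cannot be told apart. With the blood endothelial score instead, the median was -0.71, Gimap3 was at -1.75 and Gimap5 at -0.99, and Gimap1, Gimap5 and Gimap6 were called (1.87% of all genes).

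**Figure D4:**
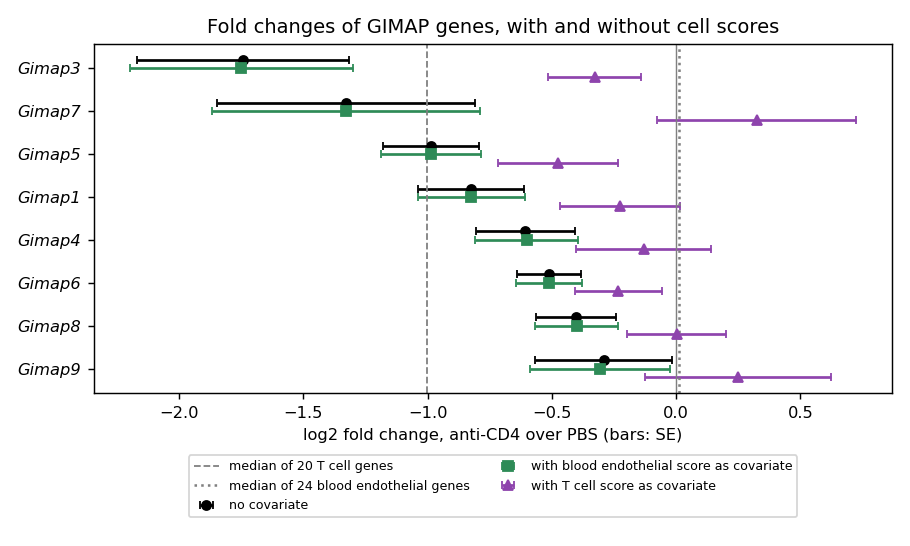
Log2 fold change of each GIMAP gene, anti-CD4 over PBS (x axis, bars give the SE), with no covariate (black), the blood endothelial score (green) or the T cell score (purple) in the fit; lines give the medians of 20 T cell genes (dashed) and 24 blood endothelial genes (dotted). Black and green points lie close together, and the purple point of Gimap3 is at -0.33, against -1.74 without a covariate.

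Other lymphocyte lists were read in the same fit. Cd8a and Cd8b1, the CD8 coreceptor chains, had log2 fold changes of -0.15 (edgeR adjusted p = 0.794) and 0.18 (edgeR adjusted p = 0.844). Of 8 genes of naive and circulating T cells, 6 had a negative log2 fold change and 2 a positive one, up to 0.17, with a median of -0.85. Called lower were 2 of them, the chemokine receptor Ccr7 (-1.79, SE 0.18, edgeR adjusted p = 0.00068) and the interleukin-7 receptor Il7r (-1.21, edgeR adjusted p = 0.0361). The count was 1 with the library total as a covariate and without anti-CD4 tumour 2, 5 or 6 or PBS tumour 2, 3 or 6, 0 with the T cell score, and 4 without PBS tumour 1. DESeq2 called 4 of these 8 genes lower and 0 higher, and limma's voom 5 lower and 1 higher. Of 6 NK cell genes tested, 1 was called lower, the receptor Klre1 (-1.14, edgeR adjusted p = 0.0186), while DESeq2 called 5 and limma's voom 6. This count was 0 with the library total or the T cell score as a covariate and without anti-CD4 tumour 2, 5 or 6, 2 without PBS tumour 4, 4 without anti-CD4 tumour 3 and 5 without PBS tumour 1. Of 6 B cell genes tested, 5 had a negative log2 fold change and 1 a positive one (0.19), with a median of -0.29. Only 1 was called lower, the coreceptor Cd22 (-0.81, edgeR adjusted p = 0.0279). This call was lost with the library total or the T cell score as a covariate. It was also lost without anti-CD4 tumour 2, 5 or 6 or PBS tumour 2 or 6. Of 8 macrophage genes and of 4 lymphatic endothelial genes tested, 0 were called by edgeR or limma's voom. At an unadjusted p under 0.05 in edgeR, 1 macrophage gene was lower and 1 lymphatic endothelial gene higher. Of all 17940 genes, 2630 were lower and 2397 higher at that threshold. DESeq2 called 1 macrophage gene lower and 1 lymphatic endothelial gene higher (1157 lower and 1337 higher of all genes).

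The lists' part in the GIMAP values was not tested beyond the 2 scores above. In mean score, NK cell genes differed by -1.31 between the anti-CD4 and PBS tumours (exact permutation, adjusted p = 0.0260), naive and circulating T cell genes by -0.757 (exact permutation, adjusted p = 0.0195), B cell genes by -0.265 (exact permutation, adjusted p = 0.107) and CD8 genes by -0.147 (exact permutation, adjusted p = 0.843). These lists too were chosen with earlier results known, so the p-values are no independent test.

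Partners of GIMAP proteins and survival genes of lymphocytes formed a further list. Of its 15 genes, edgeR called 0 lower and 1 higher (2.33% and 2.95% of all genes), and the median log2 fold change was 0.06. At an unadjusted p under 0.05, 1 was lower and 4 higher (2630 and 2397 of all 17940 genes). DESeq2 called 0 lower and 2 higher (1157 and 1337 of all genes). With limma's voom, 1 was called lower and 5 higher (3169 and 2809 of all genes). Nothing is read from these counts. The call higher was lost under upper-quartile scaling, with the library total or the T cell score as a covariate, and without anti-CD4 tumour 2, 3 or 5 or PBS tumour 2, 3, 5 or 6. The called gene was Gabarapl1, an autophagy protein related to the partner of GIMAP6, at 38.1 ± 2.9 CPM in the anti-CD4 tumours and 32.4 ± 0.955 CPM in the PBS tumours (SD, n = 6 each), without overlap. It differed by 0.23 on the log2 scale (SE 0.06, edgeR adjusted p = 0.0358). Of all 17940 tested genes, 347 had every anti-CD4 tumour above every PBS tumour. The kinase gene Gsk3b was at 0.12 (edgeR adjusted p = 0.103), the related autophagy gene Gabarap at 0.17 (edgeR adjusted p = 0.130) and the survival gene Mcl1 at -0.15 (edgeR adjusted p = 0.144). Gabarapl2 itself was at 0.14 (edgeR adjusted p = 0.261).

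Genes next to the cluster were compared to see how far the differences reached. Of the genes within 100 kb, 6 were tested and 0 were called by edgeR, limma's voom or DESeq2, with 1 at an unadjusted p under 0.05 in edgeR. Lrrc61, Rarres2, Repin1 and Zfp775 had log2 fold changes between -0.09 and 0.01. Tmem176b, beyond Gimap3, was at 56.3 ± 5.96 CPM in the anti-CD4 tumours and 70.8 ± 19.4 CPM in the PBS tumours (SD, n = 6 each). On the log2 scale it was at -0.33 (edgeR adjusted p = 0.166) and Tmem176a at -0.24 (edgeR adjusted p = 0.225).

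**Figure D5:**
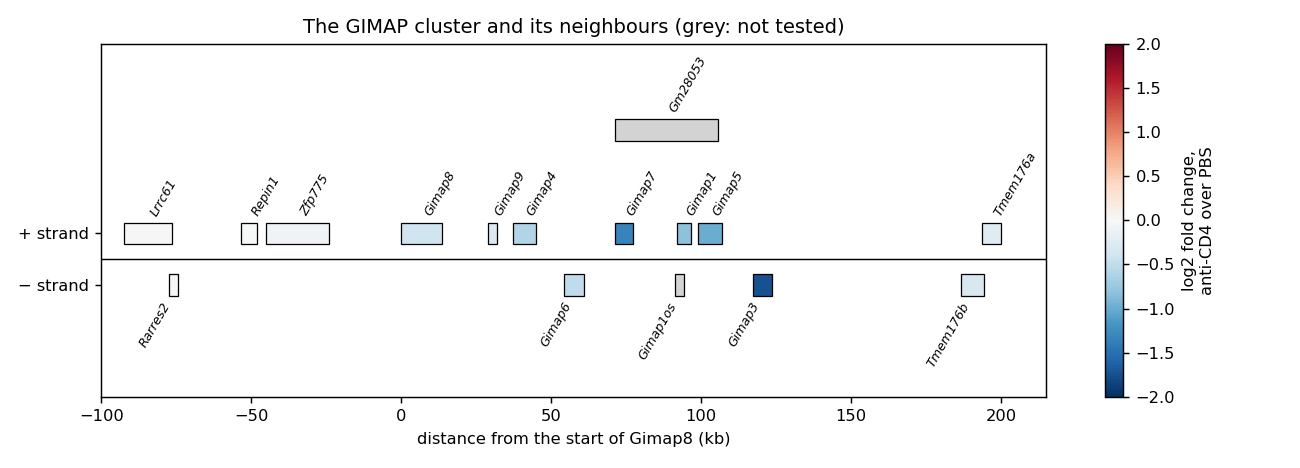
GIMAP genes and their neighbours by distance from the start of Gimap8 (x axis, kb) and strand, coloured by log2 fold change, anti-CD4 over PBS; grey genes were not tested. The GIMAP genes are all blue, darkest for Gimap3 at -1.74, and Lrrc61, Rarres2, Repin1 and Zfp775 are between -0.09 and 0.01.

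The members varied together from tumour to tumour. After each group's mean was subtracted, all 28 pairs had a positive r over the 12 tumours, as a description of libraries that share depth and cell content. The highest was 0.957 for Gimap3 and Gimap7, followed by 0.850 for Gimap4 and Gimap9 and 0.841 for Gimap3 and Gimap5, the near copies. The lowest was 0.264 for Gimap1 and Gimap6.

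By the same measure, the genes most like the mean of the 8 members were ranked among 17932 other tested genes. The closest was Cd8a with r = 0.971, followed by Klrd1, a receptor chain of NK and CD8 T cells (0.961), Lck, a kinase bound to the CD4 and CD8 coreceptors (0.956), and Ms4a4b (0.955). Tox (0.948), Il18r1 (0.948), Il15ra (0.946), Sirpb1c (0.945), Zfp831 (0.941) and Ltb, the gene of lymphotoxin beta (0.939), completed the first 10. Among the 500 genes most alike were 17 of the 20 T cell genes, both CD8 genes, 4 of the 6 NK cell genes, 4 of the 8 naive and circulating T cell genes, 1 of 8 macrophage genes, 0 of 6 B cell genes and 0 of 24 blood endothelial genes. The median r was 0.87 for the T cell list, -0.11 for the blood endothelial list and 0.027 for all genes. Of the first 10, only Zfp831 was called between the groups (-1.57, edgeR adjusted p = 0.0215), while Cd8a, the closest of all, had the log2 fold change of -0.15 given above.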

How the data were processed

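Reads were converted with bcl2fastq 2.20.0.422 and quantified with kallisto (no version given) on GRCm38.p6, per the submitters' processing notes. The values the authors deposited are kallisto's estimated counts by symbol for 12 tumours, without normalisation. These were rounded. Of 35999 symbols, 17940 passed edgeR's filterByExpr. With edgeR 4.0.16 in R 4.3.3, TMM scaling and the robust quasi-likelihood F test compared the groups, with Benjamini-Hochberg adjustment over all tested genes. SEs are |log2 fold change| divided by the square root of F. Scores are mean log2 CPM with a prior count of 2.

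The members and lists were chosen with earlier results of these data known. Named genes were the members, Cd4, up to 4 genes of smallest p per list plus Cd3e, Pecam1 and Cdh5, the 10 most alike, and neighbours within 100 kb; Gabarapl2, the partner of GIMAP6, and Msln, Pdpn, Wt1 and Ptprc, a check of the tissue, were added outside this rule with results known. Gene positions and 31-base words (kallisto's default length) come from GENCODE M21 and upstream sequences from RefSeq.

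No tumours were alike within sampling noise: chi-square per degree of freedom was 8.54 to 67.8 over 30 same-group pairs. Whether tumours came from separate mice is not stated for each, so p-values measure the spread between these samples. Alternatives were other scalings and filters, limma 3.58.1 voom with sample weights, DESeq2 1.42.0, covariates, a replicate block and leaving tumours out. The 26 symbols turned into dates held 0.227% of counts.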

Additional observations from a re-analysis of the deposited data

Results flagged for a closer look

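In 44 groups of 6 tumours, 3 had a tumour far from the rest, judged by its gap to the nearest tumour over the group's range, and all 3 were PBS tumour 6. Chance flags about 1 in 20 groups, so 3 of 44 is close to that rate. The groups share the same tumours and are not independent. Gimap3 was at 12.86 CPM in PBS tumour 6, and the next highest PBS tumour was at 7.552 CPM, a gap of 0.7008 of the range (past the 95% critical value of Dixon's test). The NK cell score was 2.522 in PBS tumour 6 and 1.483 in the next (0.7065 of the range), and the B cell score was 1.667 in PBS tumour 6 and 1.191 in the next (0.7162 of the range). Without PBS tumour 6, 0 members were called, with 0.36% of all genes called lower, against 2.33% with all tumours. The same 0 members were called without anti-CD4 tumour 2, 5 or 6, which were not flagged. The shares of all genes called lower were then 0.182%, 0.171% and 0.199%. The loss of member calls was therefore not particular to PBS tumour 6.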

How the results depend on the processing

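The fold changes of the members tested stayed negative under the scalings, filters, tools, the replicate block and the library total. They also stayed negative in the fits that left out tumours and with the endothelial score. All 8 members were tested in each fit but 1. The stricter filter (at least 1 CPM in at least 6 tumours) left 6 members, without Gimap7 and Gimap9. With the T cell score Gimap7, Gimap8 and Gimap9 were at 0.32, 0.0017 and 0.25, and also above 0 with both scores. Against 947 genes, 4 members and 4 T cell genes called, limma's voom called 5978 genes, 7 members, 19 T cell genes and 3 blood endothelial genes. DESeq2 called 2494 genes, 5 members and 11 T cell genes. Upper-quartile scaling called 504 genes, 179 higher and 325 lower (529 and 418 with TMM), and no filter called 523 genes. The library total left 5 genes, 0 members and 1 T cell gene. The T cell score, alone or with the endothelial score, left 0 of all 17940 genes called, and so 0 members. Leaving out anti-CD4 tumours 3 and 4 together called 1083 genes (3.86% of all genes lower), 5 members and 17 T cell genes. Leaving out 1 tumour gave 62 to 2640 genes, 0 to 4 members and 1 to 12 T cell genes.

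Replicate numbers did not pair the tumours (same-number correlations of -0.41 to 0.229, with 0 of 6 anti-CD4 tumours closest to their own number). With the number as a replicate block, 33 genes (0.078% of all genes lower), 0 members and 1 T cell gene were called (6 members were lower at an unadjusted p under 0.05 in edgeR, as were 11.1% of all genes). The block also left 0 NK cell, 0 B cell and 0 partner genes and 1 naive T cell gene called, and Gimap3 was at -1.91 (SE 0.47).

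Without the 2 farthest tumours, r with the T cell score in PBS tumours was -0.0702 for Gimap5, -0.0052 for Gimap6 and -0.52 for Gimap8. With the endothelial score it was -0.79 for Gimap3, -0.61 for Gimap5, -0.20 for Gimap6 and -0.42 for Gimap8 in anti-CD4 tumours, and 0.497 for Gimap3, 0.936 for Gimap4, 0.955 for Gimap6, 0.452 for Gimap7 and 0.659 for Gimap9 in PBS tumours. Shorter lists gave -0.33 for Gimap3, -0.45 for Gimap5 and -0.24 for Gimap8 with the endothelial score in anti-CD4 tumours, and 0 of 32 relations passed instead of 4. The cause was not tested. Depth limited Gimap7 most, at 2 to 50 counts per tumour.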
